A study of Mus musculus with 20 samples.

Results

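The genes described here are those of sterol and fatty acid synthesis and their regulators, a list of 33 genes picked by symbol from the 57180 gene identifiers of the deposited count table. All 33 were in the table, and all 33 passed the filter on low counts in every comparison. By role, 7 genes act between acetyl-CoA and farnesyl diphosphate, 11 between squalene and cholesterol, 6 in the control of SREBP or in sterol transport, and 9 in fatty acid synthesis and desaturation.

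Poly(A) RNA was sequenced from tissue punches of 2 mouse brain regions, the paraventricular thalamic nucleus (PVT), a midline thalamic nucleus, and the posterior insular cortex (pIC), a cortical area that handles pain and signals from the body. The STZ mice, a model of painful diabetic neuropathy, had received 1 intraperitoneal injection of 200 mg/kg streptozotocin, a toxin that destroys pancreatic beta cells. The control mice had received vehicle, and all tissue was collected at week 7. Strain, sex and age are not given in the labels. There were 6 STZ and 4 control libraries in each region, 20 in all, with 17.9 M to 25.5 M counts each. Of 10 thalamic markers, 10 were higher in PVT than in pIC in STZ mice and 8 in control mice. The thalamic content varied widely between PVT libraries. The marker Tcf7l2 ran from 7.15 CPM in STZ PVT replicate 2 to 160 CPM in STZ PVT replicate 5, against 2.80 to 4.41 CPM in pIC. PVT libraries also held choroid plexus markers (summing to 1350 to 6028 CPM) and cortical Slc17a7 (55.5 to 593 CPM, against 986 to 1764 CPM in pIC). Striatal markers were present in both regions. They summed to 265 to 3725 CPM in STZ PVT and 339 to 1577 CPM in control PVT. In pIC their sums were 415 to 3722 CPM in STZ and 412 to 1440 CPM in control libraries. The labels do not say that the libraries of a group came from separate animals, so the p-values measure only the spread between these samples.

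Sterol regulatory element-binding proteins (SREBPs) are membrane-bound transcription factors of the endoplasmic reticulum. When sterols are low, Scap escorts them to the Golgi, where they are cleaved, and the freed part turns on genes of cholesterol and fatty acid synthesis; when sterols are high, the Insig proteins hold Scap back. In the brain nearly all cholesterol is made locally, by astrocytes and neurons and, during myelination, above all by oligodendrocytes, because lipoproteins of the blood do not cross the blood-brain barrier. Srebf2 mainly drives the sterol genes and Srebf1 mainly the fatty acid genes.

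The 250 bases before the start site are printed for 3 genes, to show the motifs through which SREBPs and their partners act at such promoters. The sequences are RefSeq windows of build GRCm38.p6, and capitals mark matches, on either strand, to the sterol regulatory element TCACNCCAC, the NF-Y box CCAAT, and the GC box, whose letters are GGGCGG. A match on the other strand appears as the reverse complement. No 2 matches of different motifs overlap in these 3 windows. Insig1 was lower in STZ libraries of both regions, Mvk in those of pIC, and Hmgcs1 was the gene with a sterol regulatory element match.
Insig1, chr5:28071162-28071411, plus strand: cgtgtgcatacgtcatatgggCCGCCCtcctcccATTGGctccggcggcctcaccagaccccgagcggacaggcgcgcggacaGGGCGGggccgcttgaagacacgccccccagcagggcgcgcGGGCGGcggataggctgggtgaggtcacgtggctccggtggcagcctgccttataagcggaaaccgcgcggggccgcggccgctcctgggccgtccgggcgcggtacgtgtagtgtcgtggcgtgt
Hmgcs1, chr13:119690101-119690350, plus strand: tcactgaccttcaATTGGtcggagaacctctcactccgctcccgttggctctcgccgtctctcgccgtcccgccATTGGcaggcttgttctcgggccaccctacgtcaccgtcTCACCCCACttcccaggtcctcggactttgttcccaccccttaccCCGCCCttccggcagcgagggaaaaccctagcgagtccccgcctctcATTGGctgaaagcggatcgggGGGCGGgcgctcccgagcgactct
Mvk, chr5:114444019-114444268, plus strand: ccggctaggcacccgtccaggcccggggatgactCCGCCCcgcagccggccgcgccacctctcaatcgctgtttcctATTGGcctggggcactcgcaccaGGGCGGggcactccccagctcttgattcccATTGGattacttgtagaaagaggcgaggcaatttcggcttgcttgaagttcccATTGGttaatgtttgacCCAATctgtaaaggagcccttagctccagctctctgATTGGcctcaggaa
Windows were at hand for 26 of the 33 genes, not for Fdps, Fdft1, Sqle, Stard4, Scd1, Scd2 and Fads1. The sterol regulatory element letters were found in 1 of the 26 genes, Hmgcs1, where the match begins 137 bases before the start site, and in 1.22% of all 27025 genes with a window. The NF-Y box was found in 20 of the 26 genes, against 37.5% of all genes, and the GC box in 22 of the 26, against 35.4% of all genes. The 2 boxes are short and were searched for on both strands, so a match describes the letters of the window and is no measure of binding. For the sterol regulatory element only the letters TCACNCCAC in the 250 bases were searched. Elements with other letters or outside the window would be missed, so a gene without a match may still have one.

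In pIC, the sterol branch of the pathway was lower in STZ mice than in control mice, and the fatty acid branch showed no call. Insig1 and 7 of the 18 enzymes between acetyl-CoA and cholesterol fell: Mvk, Mvd and Fdps in the early part, and Sqle, Cyp51, Msmo1 and Dhcr7 in the late part. That made 8 of 33 genes lower and 0 higher (edgeR, adjusted p under 0.05), against backgrounds of 0.964% of all 16189 genes tested lower and 0.432% higher. The log2 fold change was below 0 for 18 of 18 sterol enzymes, with a median of -0.30, beside a median of -0.0006 over all genes tested. In bulk tissue, fewer cells of a type and less RNA per cell cannot be told apart.

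Insig1 (ENSMUSG00000045294), a protein of the endoplasmic reticulum that holds Scap back and is itself an SREBP target, had 38.1, 52.8 and 61.5 CPM (counts scaled to library size by TMM) as the lowest, median and highest of the 6 STZ pIC libraries, against 80.6, 85.1, 88.4 and 79.7 CPM in the 4 control pIC libraries. All STZ libraries lay below all control libraries. Insig1 fell by 0.68 ± 0.10 (log2, SE; adjusted p = 0.00439, edgeR), the largest change of the 33 genes in this comparison.

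Among the early enzymes, Mvd, which decarboxylates mevalonate diphosphate to isopentenyl diphosphate, had 11.3, 13.1 and 17.1 CPM as the lowest, median and highest STZ pIC value, against 18.8, 22.6, 20.7 and 20.8 CPM in control pIC. The groups did not overlap, and Mvd fell by 0.61 ± 0.11 (log2, SE; adjusted p = 0.0111). Mvk, mevalonate kinase, had 12.4, 13.6 and 15.2 CPM in STZ pIC, against 16.7, 19.7, 15.9 and 19.0 CPM in control pIC. The gap between the Mvk groups was narrow, and the gene fell by 0.38 ± 0.08 (log2, SE; adjusted p = 0.0282). Fdps, farnesyl diphosphate synthase, had 51.7, 55.8 and 61.5 CPM in STZ pIC, against 66.6, 70.1, 63.6 and 68.9 CPM in control pIC, and fell by 0.27 (SE 0.06, adjusted p = 0.0308). The Fdps value is uncertain, because 75.8% of the 100-base words of its longest transcript also occur in 3 other annotated transcripts and the counting of such reads is not given in the sources used here.

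Hmgcs1, the cytosolic HMG-CoA synthase whose promoter window holds the sterol regulatory element letters, had 215, 271 and 311 CPM as the lowest, median and highest STZ pIC value, against 336, 369, 343 and 339 CPM in control pIC. The groups did not overlap, yet the gene did not pass the threshold (log2 fold change -0.37, 95% interval -0.56 to -0.18, adjusted p = 0.0614). Idi1, isopentenyl diphosphate isomerase, was also separated between the groups without a call, at 40.9, 59.9 and 65.1 CPM in STZ pIC against 71.9, 79.2, 79.6 and 74.5 CPM in control pIC (log2 fold change -0.42, adjusted p = 0.103). About 20.0% of the words of Idi1 are shared with other transcripts. Acat2, the cytosolic thiolase of the first step, and Pmvk, phosphomevalonate kinase, were, of the early enzymes, the closest to no difference, with log2 fold changes of -0.12 (95% interval -0.24 to 0.01) and -0.04 (-0.18 to 0.10). Acat2 shares 35.3% of its words with Acat3.

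Among the late enzymes, Sqle, the squalene epoxidase that performs an oxygen-dependent rate-limiting step, had 46.9, 52.8 and 58.0 CPM as the lowest, median and highest STZ pIC value, against 70.3, 69.7, 68.4 and 70.2 CPM in control pIC. The control libraries lay close together and all STZ libraries were well below them, and Sqle fell by 0.41 ± 0.07 (log2, SE; adjusted p = 0.00548). Dhcr7, which makes cholesterol from 7-dehydrocholesterol, had 17.9, 20.6 and 24.4 CPM in STZ pIC, against 25.1, 30.9, 28.7 and 28.6 CPM in control pIC. The highest STZ library came near the lowest control library, and Dhcr7 fell by 0.45 (SE 0.09, adjusted p = 0.0206). Msmo1, a methyl sterol oxidase, had 61.3, 81.6 and 90.1 CPM in STZ pIC, against 98.0, 121, 109 and 103 CPM in control pIC, and fell by 0.44 (SE 0.10, adjusted p = 0.04). Cyp51, lanosterol 14-demethylase, had 59.4, 69.3 and 78.2 CPM in STZ pIC, against 89.4, 87.1, 79.8 and 92.7 CPM in control pIC, and fell by 0.34 (SE 0.07, adjusted p = 0.0269). Neither gene had an STZ library inside the control range.

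The other late enzymes did not pass the threshold. Tm7sf2, a sterol 14-reductase, had the largest of these log2 fold changes at -0.36 (95% interval -0.58 to -0.14, adjusted p = 0.13). Hsd17b7, which acts as a 3-ketosteroid reductase in the removal of the 4-methyl groups, had -0.26 (-0.42 to -0.10) and Fdft1, squalene synthase, -0.15 (-0.24 to -0.06), both without overlap of the groups. Fdft1 was at 102 to 110 CPM in STZ pIC and at 116 to 121 CPM in control pIC, so its groups were separated by a small step. Sc5d, Nsdhl, Ebp and Lss, which act as a desaturase, a sterol dehydrogenase, a sterol isomerase and the cyclase that makes lanosterol, had log2 fold changes of -0.21, -0.19, -0.19 and -0.11. In all, 12 of 33 genes had every STZ pIC library below every control pIC library, 11 of them sterol enzymes and the other Insig1, against 2.4% of all genes tested.

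**Figure D1:**
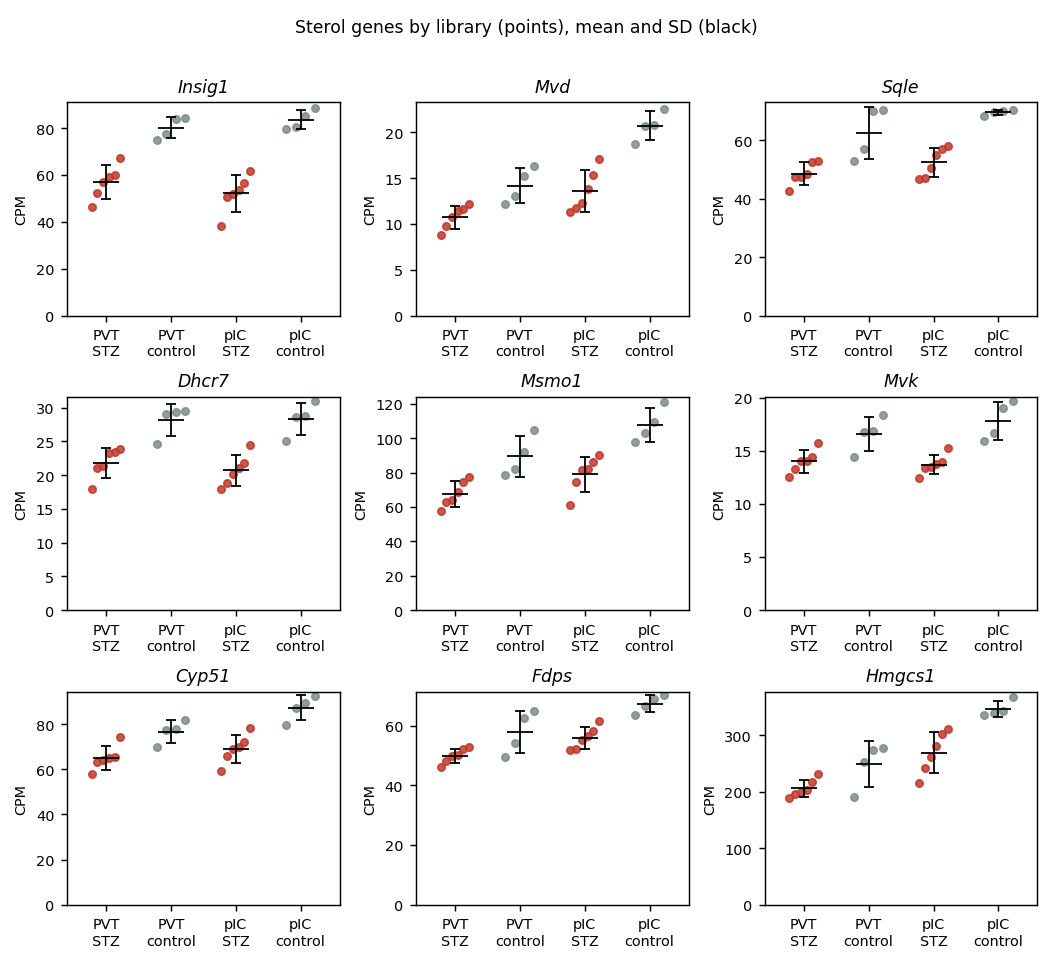
CPM of Insig1 and 8 sterol enzymes in each library (points), with the mean and SD of each group in black; the groups are PVT STZ, PVT control, pIC STZ and pIC control. In pIC every STZ point lies below every control point for all 9 genes, and in PVT this holds for Insig1, Mvd, Dhcr7 and Msmo1.

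The summed level of the 18 sterol enzymes was 848, 948, 963, 991, 1051 and 1087 CPM in the 6 STZ pIC libraries, against 1186, 1264, 1194 and 1221 CPM in the 4 control pIC libraries. The sums did not overlap. The 20 markers of oligodendrocytes and myelin summed to 3481 to 7494 CPM in STZ pIC and 3875 to 5239 CPM in control pIC. Of the 20, 0 were called (log2 fold changes -0.94 to 0.32, median -0.10). All STZ pIC libraries lay below all control pIC libraries for 2 of the 20, against 2.4% of all genes tested, and above them for 1. Opalin was among those below, at 5.81 to 13.3 CPM in STZ pIC and 13.4 to 21.4 CPM in control pIC. With the myelin score as a covariate 8 of 33 genes were lower, the same count as without it, while calls over all genes rose from 226 to 411. Astrocyte markers summed to 4275 to 5026 CPM in STZ pIC and 4448 to 4876 CPM in control pIC, with 1 of 13 higher and 0 lower, and with their score as a covariate 9 genes were lower. No marker of either list was at 0. Endothelial markers were lower for 2 of 8, summing to 274 to 319 CPM in STZ pIC and 317 to 343 CPM in control pIC. Striatal markers were called in 0 of 9, with a median log2 fold change of 0.72 for the striatal list. With the striatal score as a covariate 8 of 33 genes were lower, and 382 of all genes were called. The part of these lists in the result was not tested beyond the myelin, astrocyte and striatal scores, and no endothelial score was fitted.

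The pIC count rests in part on single libraries. Of the 10 fits that each left out 1 library, the count of lower genes was 2 when control replicate 2 was dropped, 3 for control replicate 4, 4 for either control replicate 1 or STZ replicate 6, and 5 for STZ replicate 4. Insig1 and Sqle passed in all 21 alternative fits of this comparison, Mvd in 19, Dhcr7 in 17, Cyp51 in 15, Mvk and Fdps in 14 and Msmo1 in 13.

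In PVT Insig1 was the gene of the 33 that passed the threshold, and most sterol enzymes had log2 fold changes below 0. That made 1 of 33 genes lower and 0 higher in STZ than in control mice (edgeR, adjusted p under 0.05), against backgrounds of 1.59% of all 17076 genes tested lower and 0.474% higher. The log2 fold change was below 0 for 17 of 18 sterol enzymes, Pmvk being the other (0.03), with a median of -0.23 beside 0.004 over all genes tested. Since the call is a single gene, the PVT count by itself is near the background.

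Insig1 had 46.2, 58.0 and 67.4 CPM as the lowest, median and highest of the 6 STZ PVT libraries, against 83.7, 77.6, 84.2 and 74.9 CPM in the 4 control PVT libraries. The groups did not overlap, and Insig1 fell by 0.50 ± 0.09 (log2, SE; adjusted p = 0.0232, edgeR). Mvd, Msmo1, Ebp and Dhcr7 also had every STZ PVT library below every control PVT library, which with Insig1 is 5 of 33 genes against 3.91% of all genes tested. Dhcr7 had 18.01, 22.3 and 23.8 CPM in STZ PVT against 24.6, 29.1, 29.6 and 29.3 CPM in control PVT (log2 fold change -0.37, 95% interval -0.56 to -0.18, adjusted p = 0.0566). Ebp, the isomerase that moves the ring double bond of zymosterol, had 10.7, 13.99 and 14.5 CPM in STZ PVT against 17.1, 15.9, 17.2 and 18.1 CPM in control PVT (log2 fold change -0.34, adjusted p = 0.0775). Both genes had separate groups without a call.

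Msmo1 had 57.9, 66.3 and 77.3 CPM in STZ PVT against 82.2, 92.3, 105 and 78.4 CPM in control PVT (log2 fold change -0.41, adjusted p = 0.0665). Mvd had 8.79, 11.1 and 12.15 CPM in STZ PVT against 13.0, 15.2, 16.4 and 12.19 CPM in control PVT (log2 fold change -0.40, adjusted p = 0.0988). The highest STZ and the lowest control library nearly met for Msmo1 and more closely for Mvd. Idi1 had the second largest difference of the 33 genes (log2 fold change -0.46, 95% interval -0.71 to -0.22, adjusted p = 0.0633), with 41.1, 52.3 and 59.4 CPM in STZ PVT against 66.8, 74.3, 79.5 and 57.3 CPM in control PVT. Control replicate 4 was the library inside the STZ range.

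The remaining sterol enzymes in PVT overlapped between the groups. Their log2 fold changes were -0.37 for Sqle (adjusted p = 0.0782), -0.27 for Hmgcs1, -0.25 for Mvk, -0.24 for Cyp51 and -0.22 for Fdps. They were nearer to 0 for Lss (-0.18), Sc5d (-0.17), Tm7sf2 (-0.16), Hsd17b7 (-0.14), Fdft1 (-0.13), Acat2 (-0.12) and Nsdhl (-0.08), and the intervals of all but Sc5d among these 7 included 0. Hmgcs1 shows the weight of 1 library: it had 189 to 232 CPM in STZ PVT against 253, 274, 278 and 190 CPM in control PVT, and without control replicate 4 its adjusted p was 0.038.

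**Figure D2:**
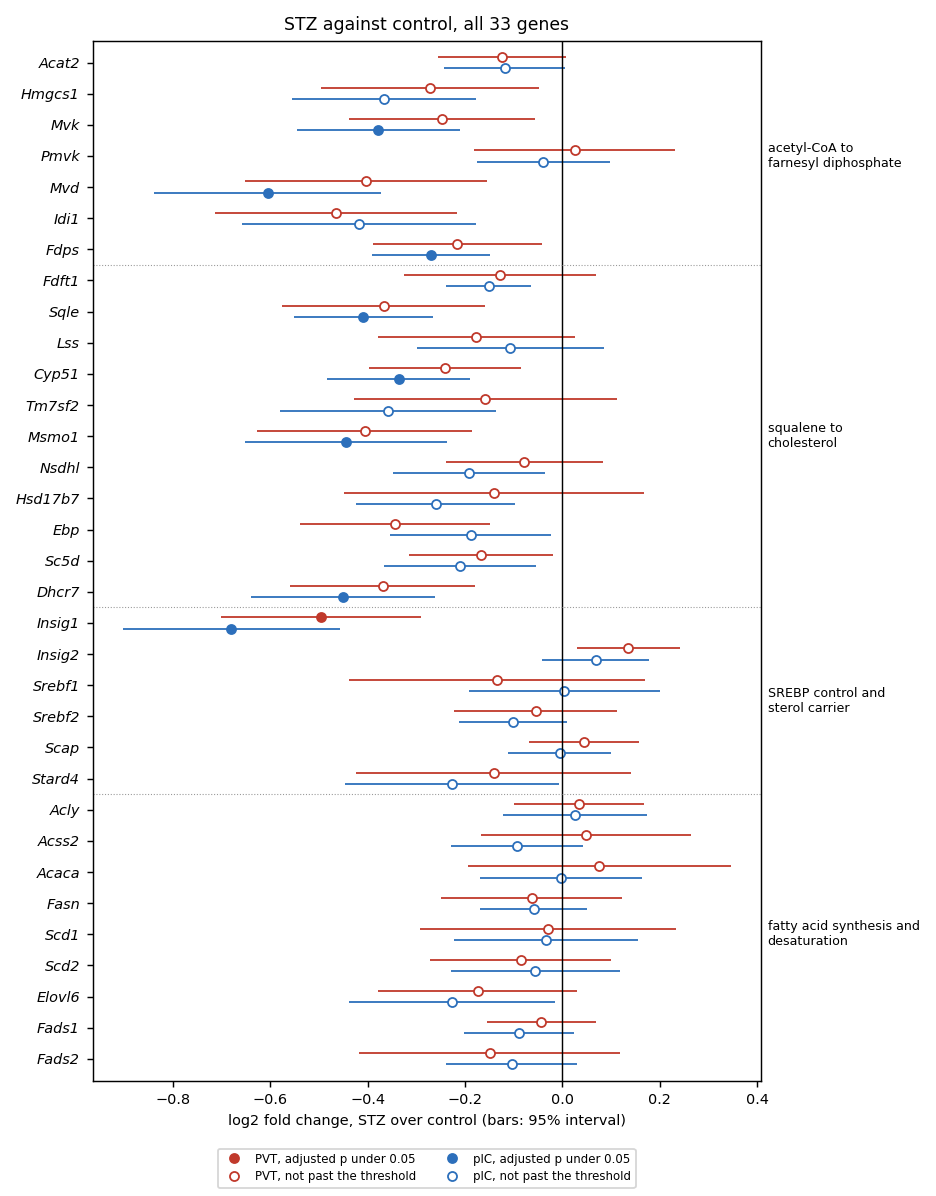
Log2 fold change of STZ over control with its 95% interval for the 33 genes, grouped by role, in PVT (red) and pIC (blue); filled points have an adjusted p under 0.05. The 18 sterol enzymes in the upper 2 blocks lie below 0 except Pmvk in PVT, Insig1 lies lowest, and the 9 fatty acid genes at the bottom lie between -0.23 and 0.08.

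The content of the PVT punches differed between the groups along with these genes. The score of the 20 myelin markers (their mean log2 CPM) was 6.83 to 7.33 in STZ PVT and 7.39 to 7.57 in control PVT, without overlap; 6 of the 20 were lower, with a median log2 fold change of -0.34, and their sum was 7616 to 10514 CPM in STZ PVT and 9485 to 11629 CPM in control PVT. Ependymal markers were lower for 7 of 9 (summed level 59.6 to 86.5 CPM in STZ PVT and 101 to 131 CPM in control PVT). Thalamic markers were called in 0 of 10, with a median log2 fold change of 0.45. Their sums were 408 to 1586 CPM in STZ PVT (median 525) and 380 to 847 CPM in control PVT (median 661). The middle STZ library was thus below the middle control library, and the fold change does not show more thalamus in STZ punches. Striatal markers were called in 0 of 9, with a median log2 fold change of 0.66. Choroid plexus markers were called in 0 of 10, with a median log2 fold change of -0.75 and sums of 1350 to 3360 CPM in STZ PVT and 2978 to 6028 CPM in control PVT. With the myelin score as a covariate 0 of 33 genes were called, and calls over all genes went from 353 to 39. In that fit Insig1 had a log2 fold change of -0.20 (adjusted p = 0.401, edgeR). The median of the 18 sterol enzymes was then -0.14, with 15 of 18 below 0. The score itself separates the groups, so its difference and that of treatment cannot be told apart in PVT.

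With the astrocyte score as a covariate 9 of 33 genes were lower in STZ PVT, while calls over all genes rose from 353 to 868. The astrocyte markers summed to 4413 to 5119 CPM in STZ PVT and 3617 to 4717 CPM in control PVT, with 0 of 13 called. The summed level of the 18 sterol enzymes was 797, 813, 859, 862, 862 and 916 CPM in STZ PVT, against 1031, 1015, 1112 and 888 CPM in control PVT. The sums overlapped through control replicate 4, a library with 11826 CPM of growth hormone (Gh), a pituitary transcript that was at most 2.76 CPM in the other PVT libraries. Without that library Insig1 was no longer called (adjusted p = 0.0556, edgeR), the 1 gene of the 33 called was Hmgcs1 (adjusted p = 0.038), and the median of the 18 enzymes was -0.26. The Insig1 call was lost without STZ replicates 3 or 4 or control replicates 1, 3 or 4, each left out in turn. It was also lost when control replicates 2 and 4 and STZ replicates 1 and 2 were left out together. These 4 PVT libraries were taken as the lowest in thalamus genes. Tcf7l2, a thalamic marker, was at 10.1 and 21.2 CPM in those control replicates and 8.10 and 7.15 CPM in those STZ replicates. STZ replicate 3, which was kept, had 20.8 CPM.

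**Figure D3:**
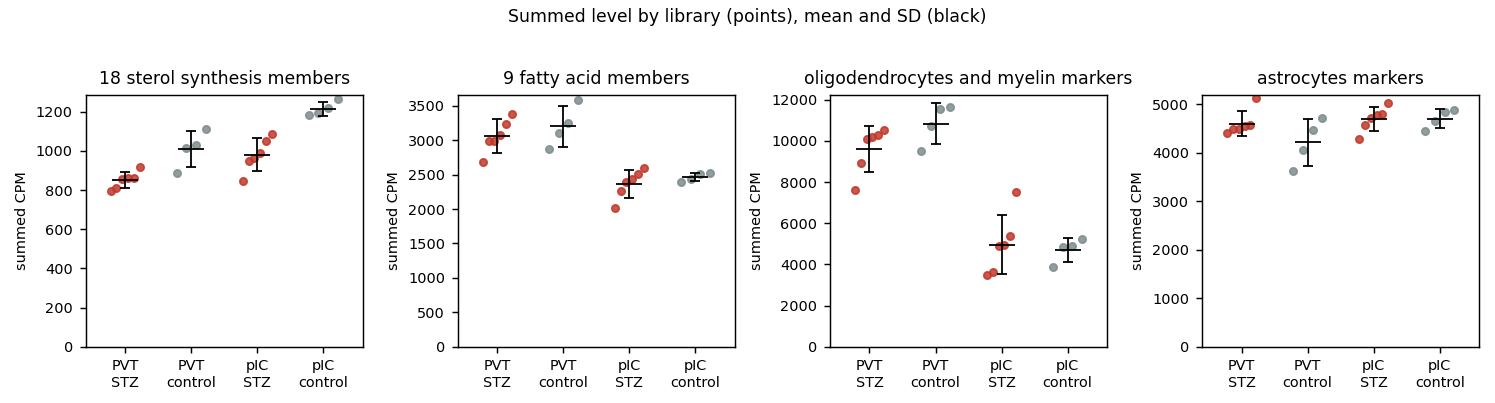
Summed CPM in each library (points) of the 18 sterol enzymes, the 9 fatty acid genes, 20 markers of oligodendrocytes and myelin and 13 astrocyte markers, with the mean and SD of each group in black. The sterol sums of STZ and control pIC do not overlap (848 to 1087 against 1186 to 1264 CPM), while the myelin sums of pIC do.

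Whether STZ acted differently on these genes in the 2 regions was tested with the region-by-treatment term of a fit to the 20 libraries together. It was called for 0 of 33 genes, with 0 of 33 at an unadjusted p under 0.05, against a background of 0% of all 17427 genes tested. DESeq2 called 0 of 33 and 4 of all genes, and 701 of all genes had an unadjusted p under 0.05 in edgeR. The difference of the 2 log2 fold changes (PVT minus pIC) ranged from -0.17 for Ebp to 0.19 for Mvd. For Insig1 it was 0.17 with a 95% interval of -0.14 to 0.48, for Sqle 0.03 (-0.22 to 0.28) and for Mvd 0.19 (-0.16 to 0.53). These intervals leave room for differences as large as many of the changes themselves, so the 8 calls in pIC and the 1 in PVT do not show a regional difference.

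The regulators other than Insig1 showed no call for STZ in either region. Srebf2, the SREBP of the sterol genes, had 222, 245 and 261 CPM as the lowest, median and highest STZ pIC value, against 268, 257, 269 and 257 CPM in control pIC (log2 fold change -0.10, 95% interval -0.21 to 0.01). In PVT Srebf2 had 180, 195 and 207 CPM in STZ libraries, against 207, 214, 213 and 168 CPM in control libraries (-0.05, -0.22 to 0.11). Both pairs of groups overlapped. Srebf1, the SREBP of the fatty acid genes, had log2 fold changes of 0.004 in pIC (-0.19 to 0.20) and -0.13 in PVT (-0.44 to 0.17), and Scap, the escort protein, -0.01 in pIC (-0.11 to 0.10) and 0.04 in PVT (-0.07 to 0.16).

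Insig2, the second Insig protein, a liver form of whose transcript falls with insulin in rodents, had log2 fold changes above 0 in both regions. It had 56.3, 59.4 and 62.0 CPM as the lowest, median and highest STZ PVT value, against 53.6, 51.7, 54.6 and 55.9 CPM in control PVT, so all STZ libraries lay just above all control libraries. The difference did not pass the threshold (log2 fold change 0.14, 95% interval 0.03 to 0.24, adjusted p = 0.178). In pIC Insig2 had 53.4 to 60.9 CPM in STZ and 52.2 to 55.9 CPM in control libraries (0.07, -0.04 to 0.18). Stard4, a soluble carrier of cholesterol and SREBP target, had log2 fold changes of -0.23 in pIC (-0.45 to -0.01, adjusted p = 0.403) and -0.14 in PVT (-0.42 to 0.14).

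The fatty acid genes were called in 0 of 9 for STZ in both regions, with a median log2 fold change of -0.06 in pIC and -0.04 in PVT. At an unadjusted p under 0.05 there was 1 of 9 in pIC and 0 of 9 in PVT. Over all genes tested, 1915 of 16189 were under it in pIC and 3034 of 17076 in PVT. Fasn, fatty acid synthase, had 200, 211 and 217 CPM as the lowest, median and highest STZ pIC value, against 234, 202, 217 and 224 CPM in control pIC (log2 fold change -0.06, 95% interval -0.17 to 0.05). In PVT Fasn had 188, 203 and 225 CPM in STZ libraries, against 251, 203, 212 and 184 CPM in control libraries (-0.06, -0.25 to 0.12). The groups overlapped in both regions, and the pIC interval excludes a change as large as that of Insig1 or Sqle there.

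Acly and Acss2, which make cytosolic acetyl-CoA from citrate and acetate, had log2 fold changes of 0.03 and -0.09 in pIC and of 0.03 and 0.05 in PVT. Acaca, the acetyl-CoA carboxylase of the cytosol, had -0.003 in pIC and 0.08 in PVT, with 42.8% of its words shared with another transcript. The desaturases Scd1 and Scd2, which put the first double bond into saturated fatty acids, had -0.03 and -0.06 in pIC and -0.03 and -0.09 in PVT. Fads1 and Fads2, the desaturases of polyunsaturated fatty acids, had -0.09 and -0.10 in pIC and -0.04 and -0.15 in PVT. Elovl6, which lengthens palmitate, was the fatty acid gene farthest from 0 in both regions, with 43.2, 52.3 and 64.0 CPM in STZ pIC against 63.5, 56.7, 69.0 and 63.5 CPM in control pIC (log2 fold change -0.23, 95% interval -0.44 to -0.02, adjusted p = 0.382) and -0.17 in PVT (adjusted p = 0.364).

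**Figure D4:**
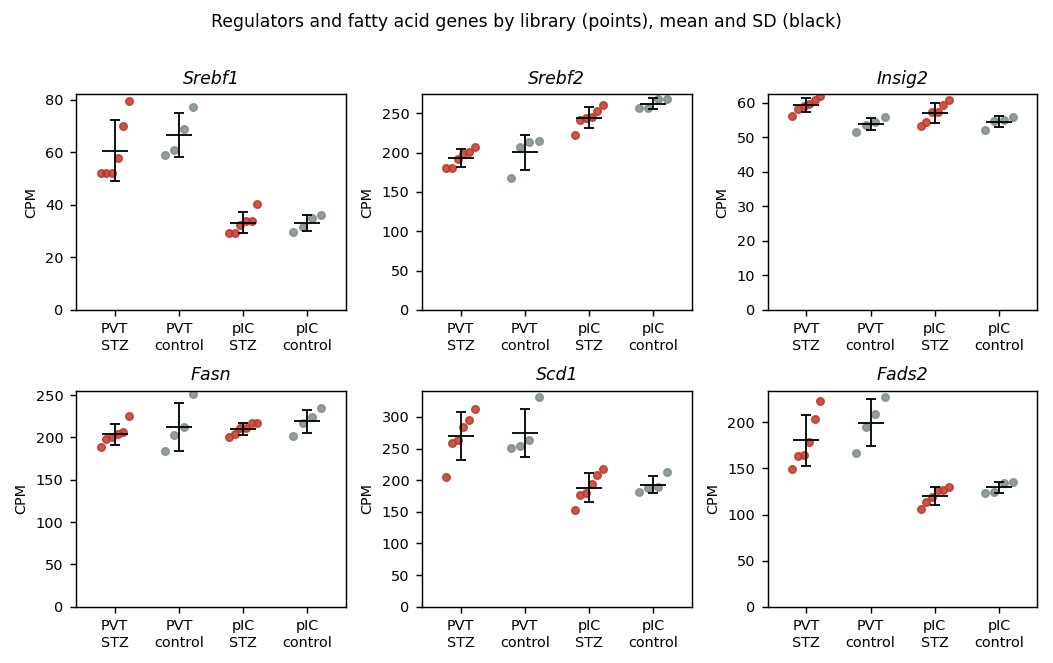
CPM of Srebf1, Srebf2, Insig2, Fasn, Scd1 and Fads2 in each library (points), with the mean and SD of each group in black. STZ and control libraries overlap in every panel except Insig2 in PVT (56.3 to 62.0 against 51.7 to 55.9 CPM), and Srebf1 is higher in all PVT than in all pIC libraries.

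Between the regions, 6 of 9 fatty acid genes were higher in PVT than in pIC, while the called sterol enzymes were all lower. In STZ mice PVT libraries had more of 7 and less of 9 of the 33 genes than pIC libraries (edgeR, adjusted p under 0.05), against backgrounds of 26% and 23.1% of all 16489 genes tested. In control mice 7 were higher and 8 lower, against 25.5% and 22.4% of all 16614 genes tested. Those shares of the list are near the backgrounds. None of the 33 genes passed a test against a minimum fold of 2 in either set of mice.

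Srebf1 differed most. It had 51.9, 55.1 and 79.5 CPM as the lowest, median and highest STZ PVT value, against 29.4, 32.99 and 40.2 CPM in STZ pIC, and was higher by 0.87 ± 0.12 (log2, SE; adjusted p = 8.19e-05). In control mice it had 77.3, 60.9, 58.9 and 68.7 CPM in PVT, against 36.1, 34.9, 31.5 and 29.7 CPM in pIC, and was higher by 1.02 (SE 0.10, adjusted p = 2.45e-05). No PVT library reached down to a pIC library. Srebf2 went the other way, lower in PVT with log2 fold changes of -0.34 in STZ mice and -0.38 in control mice.

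Of the 9 fatty acid genes, 6 were higher in PVT in both sets of mice: Acly, Scd1, Scd2, Elovl6, Fads1 and Fads2. In control mice Fads1 passed in 6 of 16 alternative fits and Acly in 13, against 15 for Scd1, Scd2, Elovl6 and Fads2. The log2 fold changes were 0.59 in STZ mice and 0.64 in control mice for Fads2, 0.52 in both for Scd1, 0.46 and 0.50 for Scd2, 0.37 and 0.32 for Elovl6, 0.25 in both for Acly, and 0.22 and 0.19 for Fads1. Fasn and Acaca, the core enzymes of palmitate synthesis, were not called, at -0.05 and -0.06 in STZ mice and -0.04 and -0.13 in control mice. Acss2 was lower in PVT in control mice (-0.33, adjusted p = 0.00614) and had -0.19 in STZ mice (adjusted p = 0.0634).

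Of the 18 sterol enzymes, 7 were lower in PVT than in pIC in STZ mice and 6 in control mice, and 0 were higher in either. Hsd17b7 differed most, with 15.6, 16.9 and 21.5 CPM in STZ PVT against 22.4, 27.0 and 29.4 CPM in STZ pIC (log2 fold change -0.59, SE 0.09, adjusted p = 0.000126) and with -0.70 in control mice. Hmgcs1, Mvd, Fdft1 and Tm7sf2 were also lower in both sets of mice, at -0.38, -0.34, -0.28 and -0.32 in STZ mice and -0.47, -0.54, -0.29 and -0.52 in control mice. Nsdhl was called in control mice, and Ebp and Fdps in STZ mice. Insig1, the gene called for STZ in both regions, had close levels in the 2 regions, with PVT over pIC at 0.13 in STZ mice (95% interval -0.11 to 0.37) and -0.05 in control mice (-0.20 to 0.10).

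The cell content of the dissections moved with these regional differences. Myelin markers were higher in PVT for 20 of 20 in both sets of mice, with a median log2 fold change of 0.94 in STZ mice and 1.19 in control mice. Astrocyte markers were higher for 8 of 13 in STZ mice and 7 of 13 in control mice, and cortical excitatory markers were lower for 8 of 9 and 7 of 9. Their part in the levels of the sterol and fatty acid genes was not tested.

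**Figure D5:**
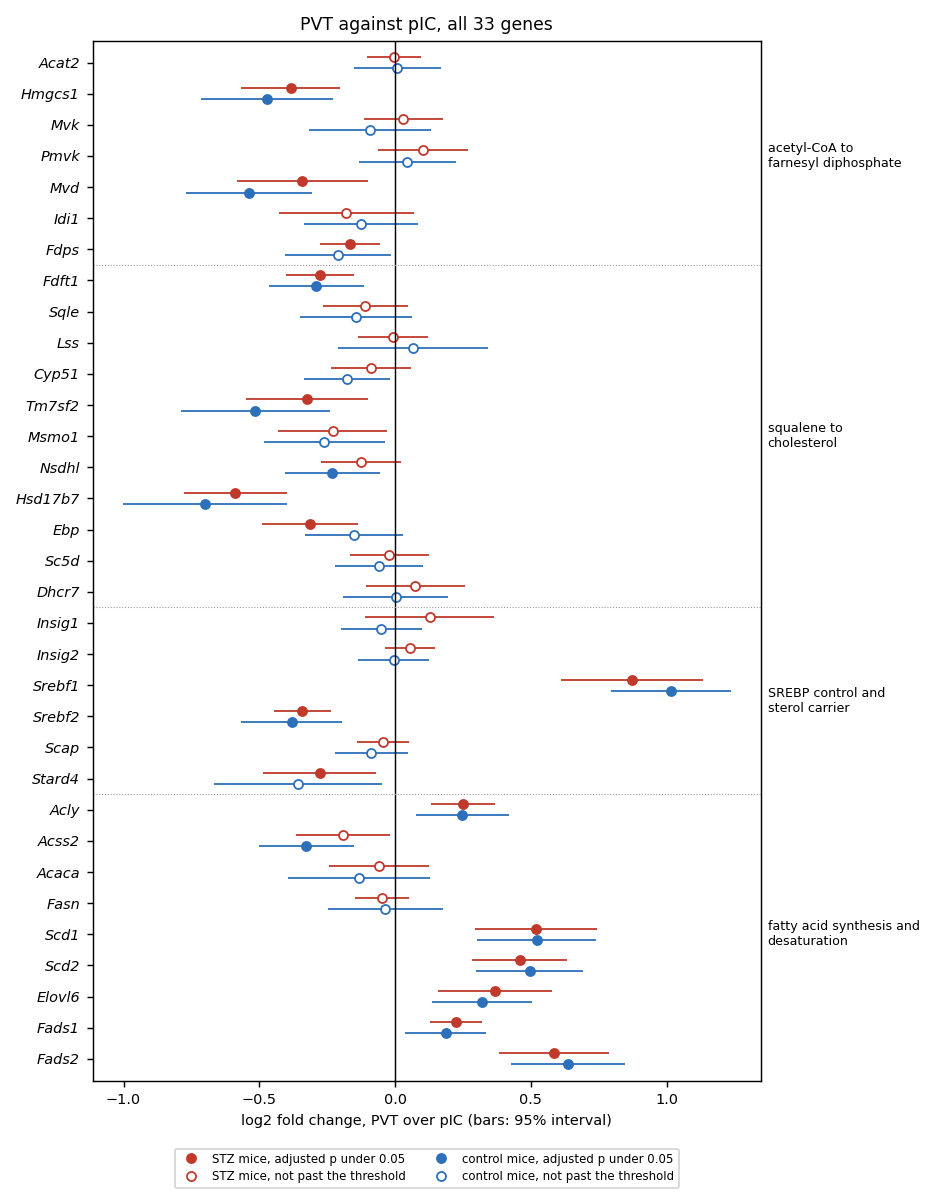
Log2 fold change of PVT over pIC with its 95% interval for the 33 genes, grouped by role, in STZ mice (red) and control mice (blue); filled points have an adjusted p under 0.05. Srebf1 lies farthest right (0.87 and 1.02), 6 of the 9 fatty acid genes lie right of 0 in both, and Hsd17b7 lies farthest left (-0.59 and -0.70).

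Other genes of the pathway, listed apart from the 33, were counted for STZ in the same fits. Of 22 other sterol genes, 0 were lower and 1 was higher in PVT. The gene higher in PVT was Ch25h, which makes 25-hydroxycholesterol, a sterol that blocks SREBP cleavage through Insig. It was a low-count gene, at 0.368 to 2.02 CPM in STZ PVT and 0.178 to 0.323 CPM in control PVT, with a log2 fold change of 2.41 (95% interval 1.33 to 3.49, adjusted p = 0.0313) that passed in 11 of 22 alternative fits. In pIC it was at 0.763 to 2.29 CPM in STZ and 0.0898 to 0.724 CPM in control libraries, without overlap and without a call (1.68, adjusted p = 0.0751).

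Of 24 other fatty acid genes, 1 was lower and 0 were higher in each region. In pIC this was Mid1ip1, which promotes the polymerisation of acetyl-CoA carboxylase, at 66.2 to 79.6 CPM in STZ and 91.7 to 102 CPM in control libraries; it fell by 0.37 on the log2 scale (adjusted p = 0.00676) and passed in all 21 alternative fits. In PVT it had a log2 fold change of -0.35 without overlap of the groups and without a call (adjusted p = 0.0566). The gene called in PVT was Elovl7, an elongase of very long fatty acids, at 17.2 to 22.1 CPM in STZ and 22.7 to 37.6 CPM in control libraries (fell by 0.64, adjusted p = 0.0271). Elovl7 passed in 11 of 23 alternative fits, and with the choroid plexus score as a covariate its adjusted p was 0.465.

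The machinery that processes SREBP was not called. Of 12 such genes, among them the site-1 protease Mbtps1 and the Insig partner Erlin2, 0 were lower and 0 higher in either region (edgeR). At an unadjusted p under 0.05 there was 1 of 12 in pIC and 0 of 12 in PVT. The backgrounds at that threshold were 1915 of 16189 genes in pIC and 3034 of 17076 in PVT. Mbtps1 had the smallest p in pIC (log2 fold change 0.20, 95% interval 0.01 to 0.39, adjusted p = 0.384) and Erlin2 in PVT (-0.11, -0.27 to 0.05, adjusted p = 0.457).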

How the data were processed

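Poly(A)-selected, stranded libraries were sequenced in paired 150-base reads, per the labels' protocols. The deposited table holds raw counts for each gene and library, made by the authors, with no pooled column; the genome build is GRCm39 per the submitters' processing notes. For the aligner, the counting program and the strand setting the names were not given in the sources used here. Symbols were matched for 51884 of 57180 identifiers. The 33 genes, the pathway and marker lists and the tests were chosen with earlier results of these data known.

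Each comparison was fitted across all genes in edgeR 4.0.16 (R 4.3.3) using the robust quasi-likelihood test, after TMM scaling and a filter on low counts (filterByExpr, count of at least 10, total of at least 15). Benjamini-Hochberg adjusted p under 0.05 over all genes tested made a call. STZ was compared with control within each region, PVT with pIC within each set of mice, and the interaction over all 20 libraries. CPM were scaled by TMM over all libraries. SE and 95% intervals are those of the log2 fold change. Alternatives were other scalings, DESeq2 1.42.0, limma-voom (limma 3.58.1), other filters and thresholds, marker scores as covariates, a replicate block and leaving out each library. The test was run on simulated counts. The changes planted there were larger than any STZ change of the 33 genes, so that run does not measure power for them. Genes named outside the 33 were, in each list and region, up to 4 called by smallest p, or the 1 of smallest p where none was called. Shared 100-base words came from the GENCODE M21 transcripts, and promoter windows from RefSeq (GRCm38.p6); the coordinates are of that build, not of the counts. No 2 libraries of a group agreed within sampling noise (lowest chi-square per degree of freedom 4). Counting error weighs most on genes of few counts. Some results of the other sterol genes are not reported here.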

Additional observations from a re-analysis of the deposited data

Results flagged for a closer look

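In 160 groups of 4 or 6 libraries (40 genes in 4 groups), 6 had a library far from the rest by Dixon's test at 95%, and chance flags about 1 in 20 groups. Of these, 5 were in control PVT. Fdft1 was at 111 CPM in control PVT replicate 3, with the other control PVT libraries at 90.0 to 91.9 CPM. Dhcr7 was at 24.6 CPM in control PVT replicate 1, with the others at 29.1 to 29.6 CPM. Srebf2 was at 168 CPM in control PVT replicate 4, with the others at 207 to 214 CPM. Scd1 was at 332 CPM in control PVT replicate 1, with the others at 251 to 264 CPM. Ch25h was at 0.323 CPM in control PVT replicate 2, with the others at 0.178 to 0.203 CPM. In STZ PVT, Ebp was at 10.7 CPM in replicate 1, with the others at 13.4 to 14.5 CPM.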

How the results depend on the processing

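The count of the 33 genes lower in STZ PVT was 1. It was 7 at an adjusted p under 0.1 and with upper quartile scaling, and 9 with the astrocyte score as a covariate. DESeq2, all 20 libraries in 1 fit and the thalamic score as a covariate each gave 6. With no filter on low counts it was 4, and with limma-voom 3. It was 0 with the myelin or choroid plexus score, and 0 without control replicates 2 and 4 and STZ replicates 1 and 2 together. Leaving out each library gave 0 to 1. In pIC the count was 8, leaving out each library gave 2 to 10, and the other alternatives gave 5 to 11. Counts of higher genes were 0 in both regions under every alternative run. The interaction stayed at 0 of 33 in all 28 alternatives. PVT against pIC gave 0 lower and 0 higher genes against a minimum fold of 2 in both sets of mice. Leaving out each library gave 7 to 11 lower and 7 higher genes in STZ mice (9 and 7 with all libraries), and 7 to 12 lower and 5 to 7 higher in control mice (8 and 7 with all libraries).

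Over all genes, 353 calls in PVT became 875 with DESeq2 and 679 with all 20 libraries in 1 fit. They became 39, 868, 1107 and 59 with the myelin, astrocyte, thalamic and choroid plexus scores. Without PVT control replicates 2 and 4 and STZ replicates 1 and 2 together there were 35. When each library was left out in turn there were 143 to 343. In pIC, 226 became 455 with DESeq2, 360 with limma-voom, and 411 and 382 with the myelin and striatal scores, and 128 to 272 when each library was left out. The region comparisons had 8089 calls in STZ mice and 7948 in control mice, and 594 and 873 against a minimum fold of 2. The interaction had 0 calls, 4 with DESeq2, 1 with no filter and 0 to 3 when each library was left out. The causes were not tested. The labels do not say whether PVT and pIC libraries of the same label came from 1 animal. Deviations correlated at -0.261 to 0.44 between STZ and control libraries of the same number, and at -0.0865 to 0.211 between regions of the same label, while Gh was high in both libraries of control replicate 4, so the pairing was not settled. Within a region, the replicate block tied STZ and control libraries of the same number, which came from different mice with no link in the labels. STZ replicates 5 and 6 had no control of their number, so they did not inform the STZ effect of that fit. With this block, 0 genes of the 33 were lower in PVT and 5 in pIC, and 72 of all genes were called in PVT. With the label as the block between regions, 11 of the 33 were lower and 7 higher in STZ mice. In control mice 9 were lower and 6 higher, and the interaction stayed at 0.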
